A study of Mus musculus with 8 samples.

Results

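The 10 genes described here make bile acids from cholesterol, conjugate them, move them into and out of the hepatocyte and sense them: Cyp7a1, Cyp8b1, Cyp27a1, Cyp7b1, Slc27a5, Baat, Slc10a1, Abcb11, Nr1h4 and Nr0b2. They were chosen by name for their place in the pathway, with earlier results of these data known, and were 10 of the 35275 genes in the table. Their expression was read from liver RNA of 8 male mice killed at 9 weeks of age after 24 h without food, of which 4 were Pcx L-/- and 4 were littermates of genotype Pcx f/f (controls). Pcx encodes pyruvate carboxylase, the mitochondrial enzyme that turns pyruvate into oxaloacetate, and Pcx L-/- mice lose its floxed exon in hepatocytes through a Cre driven by the albumin promoter. The controls, which the labels call WT, also carry the floxed Pcx allele, both genotypes had eaten standard chow before the fast, and the labels give the strain as C57BL/6. Each library came from 1 mouse. Mice are named by genotype and replicate, and the labels also number them: control replicates 1 and 2 and Pcx L-/- replicate 1 have numbers in the 500s, while control replicates 3 and 4 and Pcx L-/- replicates 2, 3 and 4 have numbers in the 800s. What the number series stands for is not stated.

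Bile acids are made by 2 routes. The classic route starts with cholesterol 7α-hydroxylase (Cyp7a1) and passes through sterol 12α-hydroxylase (Cyp8b1), which sets how much cholic acid is made, while the alternative route starts with sterol 27-hydroxylase (Cyp27a1) and continues with oxysterol 7α-hydroxylase (Cyp7b1). Bile acid CoA ligase (Slc27a5) and the amino acid transferase Baat conjugate the products, the sodium-dependent carrier Slc10a1 takes bile acids up from portal blood, and the pump Abcb11 secretes them into bile. The nuclear receptor FXR (Nr1h4) senses them and induces the repressor SHP (Nr0b2), which lowers Cyp7a1 and Cyp8b1, and the gut hormone Fgf15 acts on the same enzymes through the receptor Fgfr4 with its partner Klb.

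In fasted Pcx L-/- liver, 5 of the 10 genes were lower than in control and 0 were higher: Cyp8b1, Cyp27a1, Cyp7b1, Slc27a5 and Slc10a1 fell to between 33.3% and 46.7% of the control mean. Cyp7a1, the first enzyme of the classic route, and Nr1h4 had means of 98.0% and 103% of control. Baat, Abcb11 and Nr0b2 had means of 77.9%, 63.6% and 77.2% of control and did not pass the test. All 10 genes passed the filter on low counts, and a gene was called where the quasi-likelihood test of edgeR gave an adjusted p (Benjamini-Hochberg, 13168 genes tested) under 0.05. In the edgeR test at an adjusted p under 0.05, 13.5% of all genes were lower in Pcx L-/- and 14.1% were higher. At an unadjusted p under 0.05 edgeR gave 7 lower (Baat and Abcb11 added) and 0 higher. Shares of all genes at an unadjusted p were not computed, here or for the lists below. DESeq2 at its adjusted p also gave 7 lower and 0 higher, against 13.9% lower and 13.4% higher of all genes it tested. The log2 fold changes of the 10 genes had a median of -0.88, against -0.01 over all genes tested. Every Pcx L-/- mouse lay below every control mouse in 6 of the 10 genes, the 5 above and Baat, against 12.5% of all genes. In none of the 10 did every Pcx L-/- mouse lie above every control, against 15.1% of all genes. Alternative fits varied scaling, filter, tool, omitted mice and added term (replicate block or mouse number series). Each of the 5 lower genes was also called lower in all 18 of them. Among the 2 control and 3 Pcx L-/- mice of the 800s alone, a comparison added after the data were seen, their log2 fold changes lay between -1.67 (Cyp7b1 and Slc10a1) and -1.29 (Cyp8b1).

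**Figure D1:**
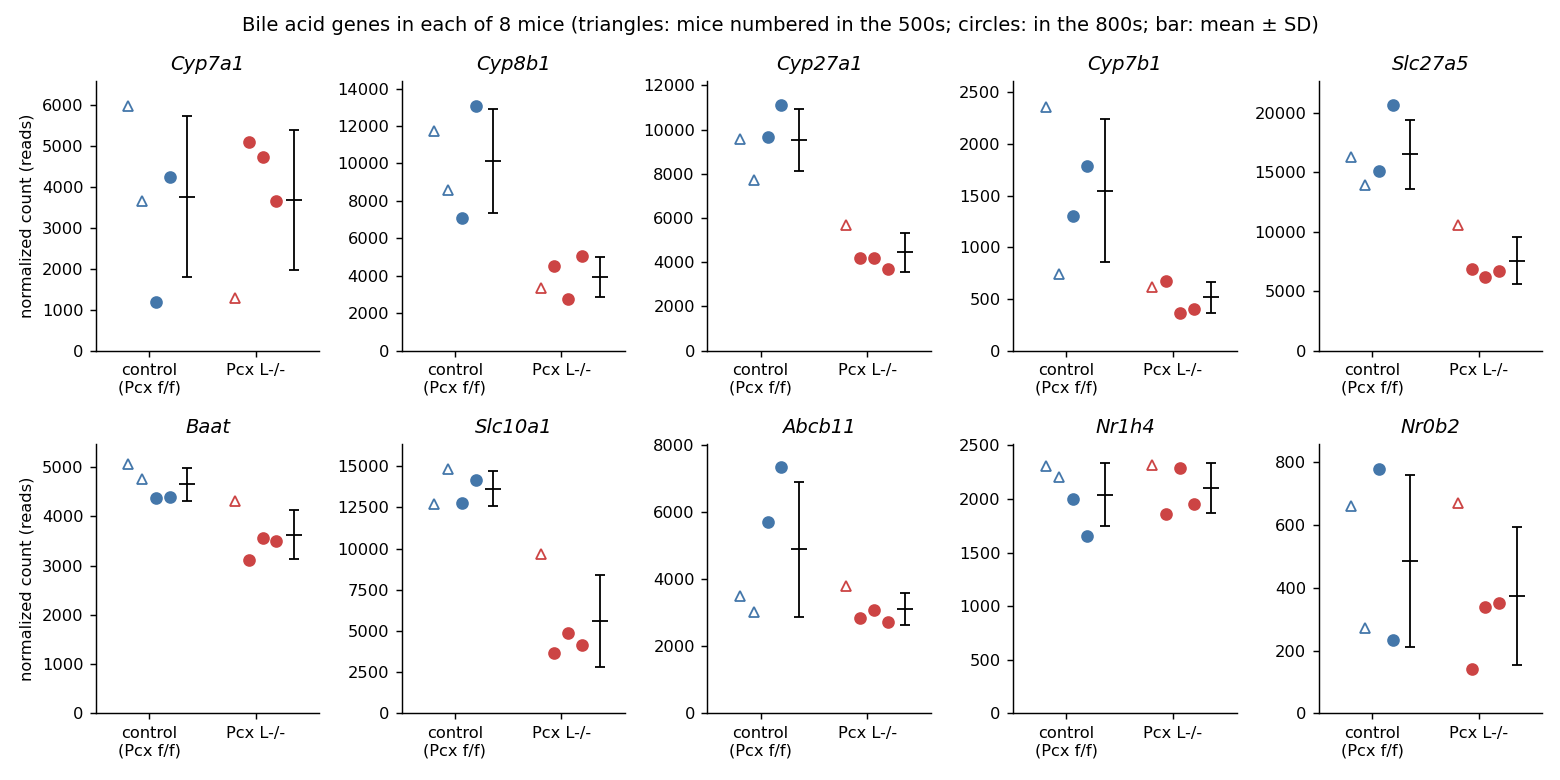
Normalized count in reads (vertical axes, each starting at 0) of the 10 bile acid genes in 4 control and 4 Pcx L-/- mice, with 1 point per mouse, triangles for mice numbered in the 500s, circles for those in the 800s, and bars for the mean ± SD. The Pcx L-/- mice lie below all control mice in Cyp8b1, Cyp27a1, Cyp7b1, Slc27a5, Slc10a1 and Baat, and the genotypes overlap in the other 4 genes.

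The libraries held between 12016242 and 20023108 reads on genes. The deleted gene, Pcx, was at 18936 ± 3249 normalized counts (SD, n = 4) in control and at 681 ± 89.9 (SD, n = 4), or 3.60% of control, in Pcx L-/- liver, as the labels have it. Without TMM scaling, with the total count alone, the median over all genes tested moved from -0.01 to 0.28, and genes called lower made up 18.2% of all calls (870 lower and 3915 higher) instead of 48.9% (1777 lower and 1855 higher). Under that scaling 5 of the 10 bile acid genes were still lower and 0 higher. Pcx L-/- replicate 1 stood apart from the other Pcx L-/- mice: its 4 main adult globin genes summed to 67724 normalized counts, against 3935 to 16033 in the other 7 libraries. In Cyp27a1, Slc27a5 and Slc10a1 it was the Pcx L-/- mouse nearest to control, and values without it are given below. Of 10 hepatocyte markers 4 were lower (Apoa1, Apob, Trf and Fgb), or 40% against 13.5% of all genes tested. Of these markers 0 were higher, and the median log2 fold change was -0.62. The summed FPKM of these markers was 48555 to 52652 in control and 34980 to 44390 in Pcx L-/- mice. Their part in the results below was not tested, and in whole liver fewer hepatocytes and less of an RNA per hepatocyte cannot be told apart. Of the zonal markers, 6 of 12 periportal genes (50%) were lower and 0 higher, with a median of -0.76. Of 12 pericentral genes, 2 were lower (Rgn and Cyp2e1) and 2 higher (Axin2 and Tbx3), 16.7% each, with a median of -0.25. Over all genes tested 13.5% were lower and 14.1% higher, so the pericentral counts are not a result about that zone. Alb, Cps1 and Ass1 are in both the hepatocyte and the periportal list. Among other cell types, 1 of 8 macrophage markers was higher (Cd68), a share of 12.5% near that of all genes. By edgeR, 0 of 8 endothelial, 0 of 8 stellate cell and 0 of 5 red blood cell markers were called. At an unadjusted p under 0.05, 2 endothelial markers were lower and none of the other 2 lists. Of 8 intestinal markers, Fabp2 was tested and not called (11007 reads over the 8 libraries, log2 fold change -0.28), Vil1, Cdx2, Lct and Muc2 had 3 to 13 reads over all libraries, and Fgf15, Fabp6 and Reg3g had 0. The summed FPKM of that list was 51.2 to 105.7 in control and 66.8 to 96.4 in Pcx L-/- mice.

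Promoter sequences of the RefSeq annotation of GRCm38.p6, from 250 bases before to 50 bases after a gene's start, were at hand for 6 of the 10 genes. They are shown for Cyp8b1, Cyp27a1 and Slc10a1, the lower genes among them, and for Abcb11, the export counterpart of Slc10a1. Each is written 5′ to 3′ on the strand of its gene. Both strands were searched for 4 short motifs of nuclear receptors and FOX proteins, which are known to act on these genes: the nuclear receptor core site AGGTCA, the HNF4A-type motif CAAAGTCCA, the NR5A2-type motif CAAGGTCA (whose last 6 letters are the core site, so that each match also counts as one) and the FOX-type motif TGTTTAC. The inverted and the direct repeat of the core site with 1 base between were searched as well. Capitals mark the matches.
Cyp8b1, chr9:121916256-121916555, minus strand: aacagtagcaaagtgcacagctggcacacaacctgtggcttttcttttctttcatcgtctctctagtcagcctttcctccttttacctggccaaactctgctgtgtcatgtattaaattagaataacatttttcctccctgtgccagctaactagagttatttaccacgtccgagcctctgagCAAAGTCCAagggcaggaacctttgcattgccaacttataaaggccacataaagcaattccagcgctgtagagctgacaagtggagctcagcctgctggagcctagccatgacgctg
Cyp27a1, chr1:74713285-74713584, plus strand: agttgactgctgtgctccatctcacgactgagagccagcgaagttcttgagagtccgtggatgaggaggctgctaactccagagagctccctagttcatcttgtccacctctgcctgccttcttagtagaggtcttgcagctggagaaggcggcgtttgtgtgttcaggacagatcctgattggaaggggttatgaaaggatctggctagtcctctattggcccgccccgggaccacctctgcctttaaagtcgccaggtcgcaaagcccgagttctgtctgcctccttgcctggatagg
Slc10a1, second start, chr12:80968030-80968329, minus strand: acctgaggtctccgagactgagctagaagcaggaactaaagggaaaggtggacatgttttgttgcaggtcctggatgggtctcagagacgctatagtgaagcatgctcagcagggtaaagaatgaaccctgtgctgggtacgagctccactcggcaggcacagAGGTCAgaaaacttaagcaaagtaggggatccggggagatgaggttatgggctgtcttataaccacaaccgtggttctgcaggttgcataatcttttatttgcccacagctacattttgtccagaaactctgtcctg
Abcb11, chr2:69342567-69342866, minus strand: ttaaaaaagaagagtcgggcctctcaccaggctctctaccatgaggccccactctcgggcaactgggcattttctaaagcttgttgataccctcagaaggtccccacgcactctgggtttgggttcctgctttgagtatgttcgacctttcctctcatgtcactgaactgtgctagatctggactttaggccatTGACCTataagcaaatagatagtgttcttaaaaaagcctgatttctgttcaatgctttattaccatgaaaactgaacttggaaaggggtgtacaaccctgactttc
The Cyp8b1 window held the HNF4A-type motif once, 67 to 59 bases before the start, a motif found in 0.475% of all 32851 promoters of this length. Core sites lay in the windows of Abcb11 and Nr1h4 and in that of the second of 2 starts of Slc10a1, and 16.3% of all promoters held a core site. The window of the first Slc10a1 start, at the gene's 5′ end, held no match and is not shown. The Nr1h4 window, 89506609 to 89506908, lies inside the gene, whose 5′ end is at 89533585. No other motif was found in any window as an exact match. Sites that differ from a motif by any letter were not searched for, so such sites may be present. NR5A2-type motifs stood in 1.56%, FOX-type motifs in 3.65%, inverted repeats in 0.00913% and direct repeats in 0.0396% of all promoters. A match is a description of the letters and not a binding site shown by these data.

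Cyp7a1 (ENSMUSG00000028240, chromosome 4 of GRCm38, 6265612 to 6275633) catalyses the first and rate-limiting step of the classic route. Its normalized counts were 5980, 3657, 1197 and 4241 in control replicates 1 to 4 and 1297, 5100, 4727 and 3649 in Pcx L-/- replicates 1 to 4. In each genotype 1 mouse was far below the other 3, control replicate 3 and Pcx L-/- replicate 1, and the genotypes overlapped. The highest control was 4.99 times the lowest, and the highest Pcx L-/- mouse 3.93 times the lowest, the widest spread of the 10 genes in control. The log2 fold change was -0.03 (SE 0.46, adjusted p = 0.973 by edgeR). The sign of the difference was not stable: it was 0.25 without Pcx L-/- replicate 1, 0.28 without control replicate 1, 0.30 with the total count as the scaling and 0.73 in the mice of the 800s series alone, with an adjusted p of 0.194 or more in all of these.

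Cyp8b1 (ENSMUSG00000050445, chromosome 9, 121914356 to 121916305) adds the 12α-hydroxyl group that makes a bile acid precursor into cholic acid. Its normalized counts were 11750, 8579, 7079 and 13071 in control and 3342, 4548, 2748 and 5042 in Pcx L-/- replicates 1 to 4. All Pcx L-/- mice lay below all controls. The mean fell from 10120 ± 2768 (SD, n = 4) to 3920 ± 1058 (SD, n = 4), a log2 fold change of -1.37 (SE 0.24, adjusted p = 0.00258 by edgeR). Unlike several other genes here, Pcx L-/- replicate 1 was not the Pcx L-/- mouse nearest to control, and without it the log2 fold change was -1.30.

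Cyp27a1 (ENSMUSG00000026170, chromosome 1, 74713574 to 74737892) is the mitochondrial enzyme that opens the alternative route and also oxidizes the side chain in the classic one. Control mice had normalized counts of 9580, 7731, 9674 and 11131, and Pcx L-/- mice 5693, 4191, 4212 and 3691. The genotypes did not overlap, and the highest Pcx L-/- mouse was replicate 1. The log2 fold change was -1.10 (SE 0.17, adjusted p = 0.00136 by edgeR), the smallest p of the 10 genes, and -1.24 without that mouse.

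Cyp7b1 (ENSMUSG00000039519, chromosome 3, 18071950 to 18243338) hydroxylates the oxysterols of the alternative route. Normalized counts were 2363, 742, 1306 and 1784 in control and 613, 676, 365 and 408 in Pcx L-/- mice. The genotypes did not overlap, but the lowest control, replicate 2, was close to the highest Pcx L-/- mouse, replicate 2. The mean fell from 1549 ± 690 (SD, n = 4) to 516 ± 153 (SD, n = 4), and its log2 fold change of -1.59 (SE 0.32, adjusted p = 0.00501 by edgeR) was the most negative of the 10 genes. The controls differed among themselves by 3.18 times. A small nuclear RNA gene, Gm23686, lies within the gene on the same strand and has no row in the table.

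Of the conjugating enzymes, Slc27a5 passed the test and Baat did not. Slc27a5 (ENSMUSG00000030382, chromosome 7, 12988346 to 12998192), the ligase that joins bile acids to coenzyme A, had normalized counts of 16303, 13887, 15138 and 20623 in control and 10547, 6875, 6182 and 6704 in Pcx L-/- mice. Pcx L-/- replicate 1 was well above the other 3 Pcx L-/- mice and below every control. The log2 fold change was -1.12 (SE 0.20, adjusted p = 0.00279 by edgeR) and -1.32 without it. Baat (ENSMUSG00000039653, chromosome 4, 49489422 to 49506557), which then adds taurine or glycine, had 5068, 4755, 4378 and 4397 in control and 4309, 3121, 3554 and 3510 in Pcx L-/- mice. The genotypes did not overlap by a narrow margin, since Pcx L-/- replicate 1 lay just below control replicate 3. The log2 fold change of -0.36 (SE 0.13) did not pass the test (adjusted p = 0.056 by edgeR). It passed without Pcx L-/- replicate 1 (-0.46, adjusted p = 0.00797) and without control replicate 4 (-0.39, adjusted p = 0.0489), and was -0.09 with the total count as the scaling (adjusted p = 0.589).

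The carriers work at the opposite poles of the hepatocyte. Slc10a1 (ENSMUSG00000021135, chromosome 12, 80953183 to 80968705), or NTCP, had normalized counts of 12722, 14834, 12750 and 14179 in control, the narrowest set but Baat among controls. In Pcx L-/- mice they were 9684, 3641, 4902 and 4128. Replicate 1 was well above the other 3 Pcx L-/- mice and still below every control. The mean fell from 13621 ± 1057 (SD, n = 4) to 5589 ± 2779 (SD, n = 4), a log2 fold change of -1.29 (SE 0.27, adjusted p = 0.00644 by edgeR), which became -1.69 without replicate 1.

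Abcb11 (ENSMUSG00000027048, chromosome 2, 69238282 to 69342616), the bile salt export pump, had normalized counts of 3510, 3014, 5702 and 7343 in control and 3782, 2855, 3078 and 2727 in Pcx L-/- mice. The 2 controls numbered in the 500s overlapped with the Pcx L-/- mice, and the 2 controls numbered in the 800s lay above all other mice. The log2 fold change was -0.65 (SE 0.25, adjusted p = 0.077 by edgeR) over all mice. It was -1.17 (adjusted p = 0.000301) in the 2 control and 3 Pcx L-/- mice of the 800s, and -0.66 (adjusted p = 0.057) with the number series as a term. The 500s hold only 1 Pcx L-/- mouse, whose count was above both controls of that series. The call was also gained without control replicate 2 (-0.83, adjusted p = 0.0256) and without Pcx L-/- replicate 1 (-0.76, adjusted p = 0.0441). Gm13613 and Gm13614 overlap Abcb11 on the opposite strand, with 21 and 8 reads over the 8 libraries against 30725 for Abcb11.

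The receptor and the repressor did not pass the test. Nr1h4 (ENSMUSG00000047638, chromosome 10, 89454234 to 89533585) had normalized counts of 2310, 2204, 1998 and 1651 in control and 2316, 1859, 2293 and 1949 in Pcx L-/- mice. The ranges covered each other almost fully, and the log2 fold change was 0.04 (SE 0.13, adjusted p = 0.838 by edgeR), which turned to -0.05 without control replicate 4 and -0.01 without Pcx L-/- replicate 1. Nr0b2 (ENSMUSG00000037583, chromosome 4, 133553376 to 133556536) had 658, 273, 777 and 233 in control and 670, 140, 339 and 350 in Pcx L-/- mice. The spread within a genotype was 3.34 times in control and 4.80 times in Pcx L-/-, and the log2 fold change was -0.39 (SE 0.46, adjusted p = 0.568 by edgeR). In the 800s series it was -0.90 (adjusted p = 0.16). The mice with the least Cyp7a1, control replicate 3 and Pcx L-/- replicate 1, had the highest Nr0b2 of their genotypes. Control replicate 1, with the highest Cyp7a1 of all mice, had the second highest Nr0b2 of the controls.

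Levels of different genes are compared per gene length, as FPKM, the deposited count over gene length and library total, which carries no TMM scaling. In control the order by mean was Slc10a1 (434 FPKM), Slc27a5 (382), Cyp8b1 (275), Cyp27a1 (268), Baat (128), Nr1h4 (54.4), Abcb11 (51.2), Cyp7a1 (48.2), Cyp7b1 (38.0) and Nr0b2 (23.1). Neighbours in this order overlapped between mice except Slc27a5 with Cyp8b1, Cyp27a1 with Baat and Baat with Nr1h4. In Pcx L-/- the order was Slc27a5 (212 FPKM), Slc10a1 (211), Cyp27a1 (151), Cyp8b1 (132), Baat (121), Nr1h4 (67.8), Cyp7a1 (59.3), Abcb11 (40.0), Nr0b2 (20.8) and Cyp7b1 (15.4). Only Baat with Nr1h4 and Abcb11 with Nr0b2 were apart among neighbours there. Summed over the 10 genes, FPKM was 1569 to 1831 in control and 978 to 1166 in Pcx L-/- mice, where the highest was replicate 1.

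**Figure D2:**
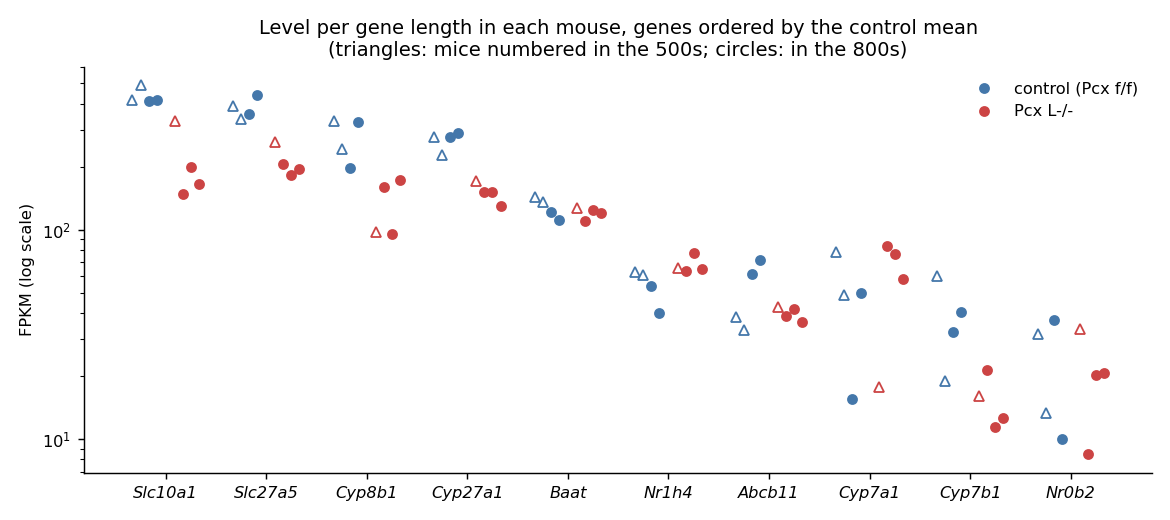
FPKM on a log scale (vertical axis) of the 10 genes, ordered by the control mean along the horizontal axis, with 1 point per mouse, blue for control and red for Pcx L-/-, triangles for mice numbered in the 500s and circles for those in the 800s. The 4 highest genes in control, from 434 to 268 FPKM on average, are all lower in Pcx L-/- mice, while Cyp7a1 and Nr0b2 span the widest range within a genotype.

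Ratios between members within a mouse do not depend on how libraries are scaled, and 3 were compared. The test was the exact permutation test over mice, two-sided, whose smallest possible p is 0.0286 with 4 mice in each genotype. The FPKM ratio of Cyp8b1 to Cyp7b1 was 5.52, 12.8, 6.02 and 8.14 in control and 6.05, 7.47, 8.37 and 13.7 in Pcx L-/- replicates 1 to 4. The ranges covered each other, and the mean log2 ratio was 2.94 ± 0.55 (SD, n = 4) and 3.09 ± 0.50 (SD, n = 4), a difference of 0.15 (exact permutation p = 0.629, adjusted over the 3 ratios 0.629).

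The ratio of Cyp7a1 to Cyp27a1, the first enzymes of both routes, was 0.283, 0.215, 0.0561 and 0.173 in control and 0.103, 0.552, 0.509 and 0.448 in Pcx L-/- mice. Pcx L-/- replicates 2, 3 and 4 lay above all controls and replicate 1 below all controls but replicate 3. The log2 ratio differed by 1.12, between -2.68 ± 1.02 in control and -1.57 ± 1.15 in Pcx L-/- (SD, n = 4 each), with an exact permutation p = 0.229 (adjusted 0.343). Without Pcx L-/- replicate 1 the difference was 1.69 (exact permutation p = 0.0571, adjusted 0.0857). Within the 800s series it was 2.35, where 2 mice against 3 are too few for this test to pass.

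The ratio of Slc10a1 to Abcb11, uptake against export, was 10.9, 14.8, 6.71 and 5.80 in control and 7.69, 3.83, 4.78 and 4.54 in Pcx L-/- mice. The highest values were the controls of the 500s series, and the 3 Pcx L-/- mice of the 800s series were the lowest of all. The log2 ratio fell from 3.15 ± 0.62 to 2.33 ± 0.43 (SD, n = 4 each), a difference of -0.82 (exact permutation p = 0.0857, adjusted 0.257), and the difference was -1.03 without Pcx L-/- replicate 1 (exact permutation p = 0.0571, adjusted 0.0857) and -0.52 within the 800s series. None of the 3 ratios passed the test, which does not show that they were equal.

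**Figure D3:**
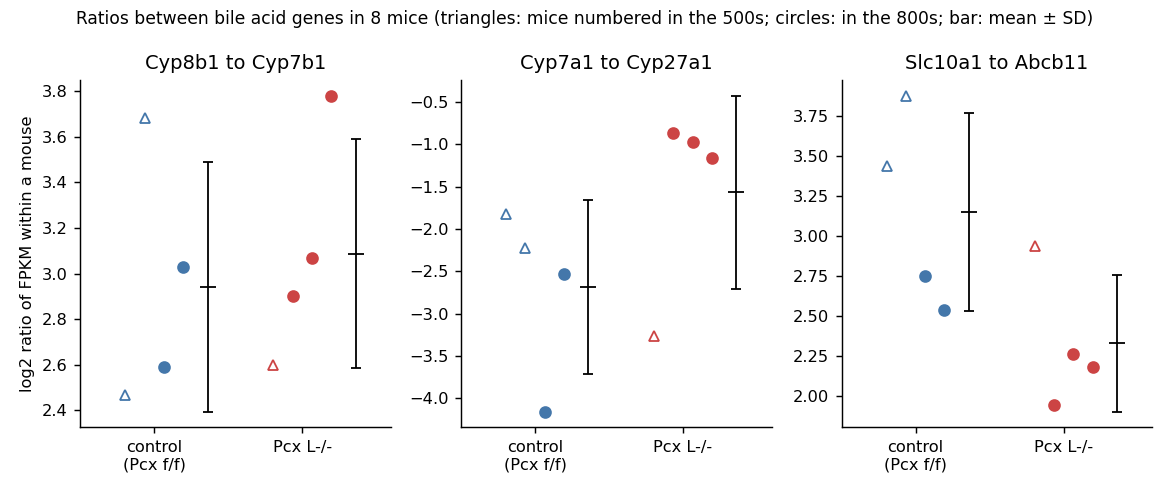
Log2 ratio of FPKM within a mouse (vertical axes, which do not start at 0) for 3 pairs of bile acid genes in 4 control and 4 Pcx L-/- mice, with triangles for mice numbered in the 500s, circles for those in the 800s, and bars for the mean ± SD. The ratio of Cyp8b1 to Cyp7b1 overlaps between genotypes, the Pcx L-/- mice of the 800s have the highest ratios of Cyp7a1 to Cyp27a1 and the lowest of Slc10a1 to Abcb11, and Pcx L-/- replicate 1 lies among the controls in all 3.

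Of 70 other genes of bile acid metabolism, 63 were tested, and 24 (38.1%) were lower and 4 (6.35%) higher in Pcx L-/- liver, against 13.5% and 14.1% of all genes tested. They had a median log2 fold change of -0.37. Without Pcx L-/- replicate 1, 37 were lower (and 17.8% of all genes), and without Pcx L-/- replicate 2, replicate 3 or replicate 4 the number was 15, 16 or 12 (and 7.86%, 8.28% or 7.11% of all genes). With the total count as the scaling, 20 were lower and 10 higher, against 6.61% lower and 29.7% higher of all genes tested. Among the 21 enzymes and helpers of synthesis, 9 of the 20 tested were lower and 0 higher by edgeR (12 and 0 at an unadjusted p under 0.05), with a median of -0.57. Akr1d1, the 5β-reductase that shapes the steroid ring of bile acids, had normalized counts of 4318, 5119, 4205 and 2714 in control and 2449, 514, 1072 and 594 in Pcx L-/- mice, a log2 fold change of -1.82 (SE 0.43, adjusted p = 0.0107 by edgeR). Cyp2c70, the enzyme with which mice make muricholic acids, had 607 to 1108 in control, with a median of 730, and 414, 101, 148 and 144 in Pcx L-/- mice (-1.98, SE 0.38, adjusted p = 0.00445). In both genes Pcx L-/- replicate 1 was far above the other Pcx L-/- mice and below all controls, and without it the log2 fold changes were -2.49 (Akr1d1) and -2.60 (Cyp2c70). Sult2a8, a bile acid sulfotransferase of mouse liver, fell to 29.5% of the control mean (-1.76, adjusted p = 0.00139) and Akr1c6, a hydroxysteroid dehydrogenase, to 33.1% (-1.60, adjusted p = 0.00438). Hsd3b7, the dehydrogenase of the step after Cyp7a1, had a log2 fold change of -0.02 (adjusted p = 0.927). Ch25h was not tested, with 5 reads over the 8 libraries.

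Among the 19 genes of transport, 10 of the 17 tested (58.8%) were lower and 2 (11.8%) higher, with a median of -0.78. Over all genes tested 13.5% were lower and 14.1% higher, so the share higher is not a result about the group. Abcc4, or MRP4, which exports bile acids back across the sinusoidal membrane, had normalized counts of 69.2, 55.3, 76.3 and 100.1 in control and 240, 1733, 987 and 1006 in Pcx L-/- mice. All Pcx L-/- mice were above all controls, with replicate 1 the nearest to them. The mean was 13.2 times that of control, and the log2 fold change was 3.74 (SE 0.49, adjusted p = 0.000846 by edgeR). Abcb1a, an efflux pump with a broad range of substrates, rose from 71.0 ± 10.9 to 189 ± 36.3 (SD, n = 4 each), or by 1.41 on the log2 scale (adjusted p = 0.00082). The sodium-independent uptake carriers Slco1a1 (38.9% of control, log2 fold change -1.36, adjusted p = 0.00109) and Slco1a4 (43.5%, -1.20, adjusted p = 0.0158) fell. Slco1a4 did not pass without Pcx L-/- replicate 2 (-1.09, adjusted p = 0.0506). Abcg5, a sterol pump of the canalicular membrane, fell to 42.3% (-1.24, adjusted p = 0.0195), a call lost without Pcx L-/- replicate 2, 3 or 4 (adjusted p = 0.0511, 0.0598 and 0.0646). Replicate 1 lay at 1736 normalized counts and the others at 487 to 680, and without replicate 1 the log2 fold change was -1.83. Slc10a2, the apical carrier of bile duct cells and ileum, had 43.3 to 95.0 normalized counts in control and 12.9 to 24.5 in Pcx L-/- mice (-1.69, adjusted p = 0.00356). Beside it, 3 of 8 tested bile duct markers (37.5%, against 13.5% of all genes) were lower, Slc10a2 itself among them with Sox9 and Prom1. Krt19, Krt7, Epcam and Spp1 were among those not called. The summed FPKM of that list was 16.4 to 26.7 in control and 17.4 to 21.6 in Pcx L-/-, and its part in the Slc10a2 result was not tested. The basolateral exporter genes Slc51a and Slc51b had 8 and 6 reads over the 8 libraries and were not tested.

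Among the 30 receptors and regulators, 5 of the 26 tested (19.2%) were lower and 2 (7.69%) higher, with a median of -0.30. These shares are near those over all genes tested, 13.5% and 14.1%, and are not a result about the group. Fgfr4, the hepatocyte receptor for the ileal hormone Fgf15, had normalized counts of 947, 696, 921 and 820 in control and 547, 291, 338 and 281 in Pcx L-/- mice, without overlap, a log2 fold change of -1.22 (SE 0.20, adjusted p = 0.00219 by edgeR). Its partner Klb had a log2 fold change of 0.31 (adjusted p = 0.0885), and Fgf15 itself had 0 reads. Nr1i3, or CAR, a nuclear receptor for foreign compounds, fell to 46.3% of control (-1.11, adjusted p = 0.0193), a call lost without control replicate 1 or 3 and without Pcx L-/- replicate 2, 3 or 4 (adjusted p between 0.0504 and 0.0621), and with limma on log2(FPKM + 1) and log2(FPKM + 0.1) (-0.81 and -0.82, adjusted p = 0.064 and 0.0795). S1pr2, a receptor that conjugated bile acids activate, was at 62.5% (-0.69, adjusted p = 0.0241), a call lost in 11 of 18 alternatives, and 6 of those left out 1 mouse (any control but replicate 4, or any Pcx L-/- mouse but replicate 1, with adjusted p between 0.0504 and 0.0755). In the 800s series it was -0.45 (adjusted p = 0.236). Nr2f2, an orphan nuclear receptor, was at 62.8% (-0.67, adjusted p = 0.00292). Nr1d1, the clock repressor REV-ERBα that acts on the Cyp7a1 cycle, had 873, 1043, 845 and 689 in control and 1167, 2059, 1856 and 2483 in Pcx L-/- mice (1.13, SE 0.21, adjusted p = 0.00348). In the clock gene list, which holds Nr1d1, 3 of 15 tested genes (20%) were higher and 5 (33.3%) lower. Over all genes these shares were 14.1% and 13.5%. The part of the clock in the bile acid genes was not tested. Sphk2, a sphingosine kinase, was at 153% of control (0.62, adjusted p = 0.00141), with all Pcx L-/- mice above all controls. Gpbar1 and Vdr had 5 and 7 reads over the 8 libraries, Malrd1 had 0, and none of these was tested.

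**Figure D4:**
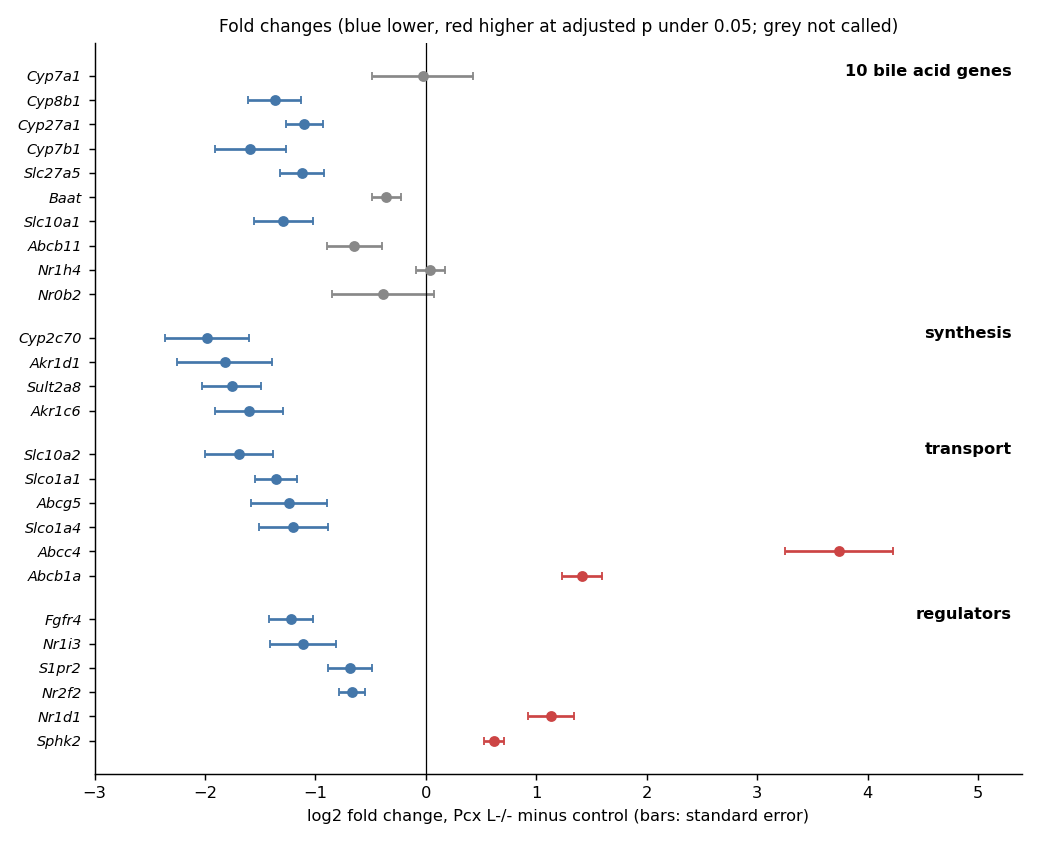
Log2 fold change of Pcx L-/- against control (horizontal axis) with its standard error for the 10 bile acid genes and, below them, the called genes of synthesis, transport and regulation named in the text, blue where lower, red where higher and grey where not called at an adjusted p under 0.05. Hsd3b7 and Klb, which were not called, are not drawn. The 5 called members lie between -1.59 and -1.10, Cyp7a1 and Nr1h4 lie at -0.03 and 0.04, and Abcc4 stands alone at 3.74.

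The genes whose mouse-to-mouse pattern was most like that of 4 members were looked up among the genes tested, by Pearson's r of the deviations of log2 CPM from the genotype mean over the 8 libraries, which share depth and scaling. For Cyp7a1 they were Parn (0.977) and Sptb (0.969), for Cyp8b1 Kdm8 (0.967) and Slc39a3 (0.966), for Cyp7b1 Gm20492 (0.989) and Atg4c (0.977), and for Nr0b2 Hdc (0.988) and Gas2l1 (0.974). With 13168 genes to choose from and 8 libraries, values this high are a description only.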

How the data were processed

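Reads were aligned by the authors to mm10 (GRCm38), and the read counts per Ensembl gene and the FPKM were used as deposited by the authors. All 142384 FPKM values above 0 equal count over length and library total within a relative tolerance of 1e-06. The submitters' processing notes name STAR 2.5, HTSeq 0.6.1 and DESeq2. The annotation release and the strand setting of the counting were not given in the sources used here. Symbols and coordinates came from GENCODE M21, which matched 34490 of 35275 identifiers, and promoters from RefSeq (GRCm38.p6).

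Genotypes were compared with edgeR 4.0.16 (R 4.3.3) on the counts, with TMM factors, filterByExpr (minimum count 10, minimum total 15), the quasi-likelihood F test and genotype as the only term. Adjusted p values cover the 13168 genes tested. Normalized counts are counts over effective library size, brought to the geometric mean of all sizes. SE is the log2 fold change over the square root of F. Ratios of FPKM were compared by an exact permutation test. The 10 members and all lists were chosen with earlier results of these data known. Named from the other lists were the 4 largest changes called in each direction and the untested genes, and Hsd3b7 and Klb were added after their values were seen. On simulated data for this comparison, edgeR recovered 73.5% of 98 genes changed 2-fold and 100% of 94 changed 4-fold, with 11 false calls among 13201 genes. The simulation changed 200 genes, balanced between higher and lower, with independent noise per gene. The data had 1777 genes called lower and 1855 higher, so these rates may not hold for them. Alternatives were other scalings, no filter, DESeq2 1.42.0 with and without apeglm 1.24.0, limma 3.58.1 on log2(FPKM + 1) and log2(FPKM + 0.1), a replicate block, the mouse number series, and each mouse left out. Marker lists covered hepatocytes, bile duct cells, macrophages, endothelial, stellate and red blood cells, intestine, liver zones and clock genes. qPCR, metabolites and proteins were not analysed here.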

Additional observations from a re-analysis of the deposited data

Results flagged for a closer look

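In 58 groups of 4 mice (each of the 10 genes, the named pathway genes and the 3 ratios, by genotype), the highest or lowest mouse was checked for a gap to its neighbour that takes most of the group's range. It did in 7 groups, all of them Pcx L-/-, and chance gives about 1 in 20 groups. In 6 of the 7 the mouse was Pcx L-/- replicate 1, which also had the most globin RNA. It was the highest in Slc27a5 (gap over range 0.841), Cyp2c70 (0.85), Akr1c6 (0.836), Abcg5 (0.846) and Nr2f2 (0.957), and the lowest in the ratio of Cyp7a1 to Cyp27a1 (0.876). In Slc10a2 it was Pcx L-/- replicate 4, the lowest (0.896). The part of the globin level in these values was not tested.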

How the results depend on the processing

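Of the 10 bile acid genes, 0 were called higher in any of the 18 alternatives, and the number called lower was 5 to 7. Cyp8b1, Cyp27a1, Cyp7b1, Slc27a5 and Slc10a1 kept their call in all of them. Baat and Abcb11 each passed in 5, among them DESeq2 (log2 fold changes of -0.37 and -0.67 without shrinkage, adjusted p = 0.0164 and 0.0394). The sign of Cyp7a1 changed with the total count as scaling (0.30), limma on log2(FPKM + 1) and log2(FPKM + 0.1) (0.29 each), the replicate block (0.04), in the 800s series alone (0.73) and in 3 of the fits that left out a mouse (control replicate 1, control replicate 4, Pcx L-/- replicate 1, with 0.03 to 0.28, or -0.33 to 0.28 over all mice left out), and that of Nr1h4 without control replicate 4 or Pcx L-/- replicate 1 (-0.05 to 0.11 over all mice left out). The cause was not tested. Of the other pathway genes, 10 instead of 4 were higher with the total count as scaling and with limma on either FPKM scale. Of all genes tested, 29.7%, 29.4% and 27.2% were higher in these fits, in this order. In the limma fits, genes called lower made up 17.5% and 17.3% of all calls. Leaving out 1 mouse gave 12 to 37 lower and 4 to 6 higher, against 7.11% to 17.8% lower and 8.63% to 16.7% higher of all genes. The log2 ratio of Cyp8b1 to Cyp7b1 differed by -0.09 to 0.39 without 1 mouse (-0.01 without control replicate 1 and -0.09 without Pcx L-/- replicate 4), that of Cyp7a1 to Cyp27a1 by 0.63 to 1.69, and that of Slc10a1 to Abcb11 by -1.03 to -0.58, and the second was 2.35 in the 800s series. No pairing by replicate number was seen: deviations of same-numbered mice correlated at 0.101, -0.131, -0.101 and -0.0703. Those of mice with different numbers correlated at -0.134 to 0.12. With 4 mice in each genotype this check cannot show that no mice were paired. The replicate block called 5 of the 10 genes and 24 others lower, changed no call among the 10 genes, and called 1481 genes higher and 1494 lower over the whole table. No ratio passed the exact permutation test without any 1 mouse (p = 0.0571 to 0.943). For the ratios an exact sign-flip test over 4 pairs cannot go below p = 0.125. For single genes and counts, the fit on the 800s series was added after the data were seen. Totals of 12016242 reads or more limit what can be said of Slc10a2 and S1pr2, with fewer than 100 normalized counts in every mouse.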
